A study of Mus musculus with 6 samples.

Results

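The genes described here encode enzymes that turn arachidonic acid into prostaglandins, thromboxane and leukotrienes, the eicosanoid lipid mediators. The set holds 10 genes chosen by name for that role: Ptgs1, Ptgs2, Ptges, Hpgds, Tbxas1, Alox5, Alox5ap, Alox15, Ltc4s and Lta4h. All 10 were found among the 20018 genes that could be named on the array, with 11 probes in all, since Ptges had 2 probes and the other genes 1 each. Of the 10 genes, 8 had a probe well above background on all 6 arrays and were among the 15736 genes tested, while Ptgs2 and Alox15 were too dim for the test and are given as levels.

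Arachidonic acid is freed from membrane lipids by phospholipase A2 and then enters one of several branches. The cyclooxygenases make prostaglandin H2, which terminal synthases convert to prostaglandin E2, prostaglandin D2, thromboxane A2 or prostacyclin. In the other main branch, 5-lipoxygenase and its activating protein make leukotriene A4, which becomes the neutrophil attractant leukotriene B4 or the cysteinyl leukotriene C4. Macrophages, mast cells, eosinophils and platelets each carry a part of this pathway, and macrophages switch the inducible cyclooxygenase on upon inflammatory stimulation.

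The samples were cultures of bone marrow from C57BL/6 mice of 11 weeks, labelled as macrophages and differentiated over 5 days under 10 ng/mL GM-CSF, the granulocyte-macrophage colony-stimulating factor, in the presence of 10% fetal bovine serum. One group was wild type (WT 1, 2 and 3) and the other lacked Bach1 (KO 947, 948 and 949), a repressor of transcription that heme inactivates. There were 3 independent mice per genotype, 2 labelled male and 1 labelled female (WT 3 and KO 949), with 1 array per mouse. Every culture of both genotypes received GM-CSF and no other stimulus is given in the labels. The sources used here do not give how the Bach1 allele was made.

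Levels below are the log2 of the processed spot signal after subtraction of the log2 75th percentile of the same array, and each difference is KO minus WT on that log2 scale. The 4 arrays WT 1, 2, 3 and KO 947 shared a slide, and the other two KO arrays lay on a second slide, where slide and genotype cannot be told apart. Between 70.3% and 73.2% of spots were well above background on the WT arrays and between 62.5% and 65.1% on the KO arrays, and no spot was saturated. With 3 arrays per genotype, the number of arrays limits the precision of every value. Levels of Bach1 itself were 2.21, 2.48 and 2.59 on the WT arrays against 1.45, 2.00 and 2.23 on the KO arrays, groups that overlapped (limma adjusted p = 0.262), and whether its probe lies in a deleted part is not known. Hmox1, which encodes heme oxygenase 1 and is a well-known Bach1 target, rose by 2.14 ± 0.25 (SE, n = 3 per genotype, limma adjusted p = 0.0114), and by 2.10 with slide as a block, where it did not pass (limma adjusted p = 0.0739).

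The 250 bases before the start of transcription are shown for Ptgs1 and Ltc4s, the members that passed the test, and for Tbxas1, the one member whose window held an AP-1-like site. The sequences are from RefSeq on the mouse build GRCm38.p6, written 5' to 3' on the strand of the gene in lower case, with motif matches in capitals.
Ptgs1 (chr2:36230176-36230425, plus strand): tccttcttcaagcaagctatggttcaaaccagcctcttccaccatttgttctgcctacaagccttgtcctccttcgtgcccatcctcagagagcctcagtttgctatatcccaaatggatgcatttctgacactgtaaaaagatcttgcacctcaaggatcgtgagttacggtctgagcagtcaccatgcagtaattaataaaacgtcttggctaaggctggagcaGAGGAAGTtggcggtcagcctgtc
Ltc4s (chr11:50238533-50238782, minus strand): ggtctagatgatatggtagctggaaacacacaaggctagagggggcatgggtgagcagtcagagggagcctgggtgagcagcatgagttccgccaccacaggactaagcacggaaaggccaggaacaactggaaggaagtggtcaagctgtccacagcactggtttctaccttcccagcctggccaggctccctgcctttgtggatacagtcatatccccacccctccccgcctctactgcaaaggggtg
Tbxas1 (chr6:38918736-38918985, plus strand): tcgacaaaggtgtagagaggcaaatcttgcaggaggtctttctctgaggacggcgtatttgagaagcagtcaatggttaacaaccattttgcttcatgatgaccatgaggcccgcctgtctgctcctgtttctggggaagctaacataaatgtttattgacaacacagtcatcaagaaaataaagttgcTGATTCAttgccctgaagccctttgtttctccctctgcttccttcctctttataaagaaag
Such a window was found for 8 of the 10 members, all except Alox5ap and Alox15. A search on both strands used TGACNNNGC, the core of the element to which Bach1 and Maf proteins bind, TGANTCA, an AP-1-like site, and GAGGAAGT, a site of the myeloid factor PU.1. A stretch can match both of the first motifs where they overlap. TGACNNNGC was in 0 of the 8 member windows and in 10.2% of all 32851 RefSeq windows of this length. TGANTCA was in the Tbxas1 window, 61 bases before the start, and in 6.75% of all windows. GAGGAAGT was in the windows of Ptgs1 (24 bases before the start) and Hpgds (49 bases before the start), and in 2.44% of all windows. These matches describe letters in the window, and binding was not measured.

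The comparison of KO with WT asked how the messenger RNA of the pathway differed in the absence of Bach1. Ptgs1, the constitutive cyclooxygenase, and Ltc4s, the enzyme that conjugates leukotriene A4 with glutathione, rose in KO, by 1.81-fold and 1.82-fold. Ptgs2, the inducible cyclooxygenase, was well above background on 2 of 3 WT arrays and 0 of 3 KO arrays, and lower on every KO array than on every WT array. No member passed the test in the lower direction. Alox5ap and Lta4h differed by no more than 0.05.

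By count, 2 of the 8 tested members were higher in KO at a limma adjusted p under 0.05, against 1.14% of all 15736 genes, and 0 were lower, against 2.27%. At an unadjusted limma p under 0.05, 5 of 8 were higher, against 8.87% of all genes (20.4% in either direction), and 0 were lower. The KO levels lay wholly above the WT levels in the same 5 of 8 (Ptgs1, Ltc4s, Alox5, Tbxas1 and Ptges), against 13.4% of the 15701 genes with a value on every array (26.9% without overlap in either direction). The median difference of the 8 was 0.48, and that of all tested genes was -0.01. The members were chosen with earlier results of these data known, so these counts are not an independent test of the list. With arrays scaled to their own median the median of all genes moved to 0.21 and that of the members to 0.69. That scaling called 384 genes higher and 230 lower, against 180 and 357 in the scaling used here. In bulk cultures, a change in the number of cells of a type and a change in RNA per cell cannot be told apart.

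**Figure D1:**
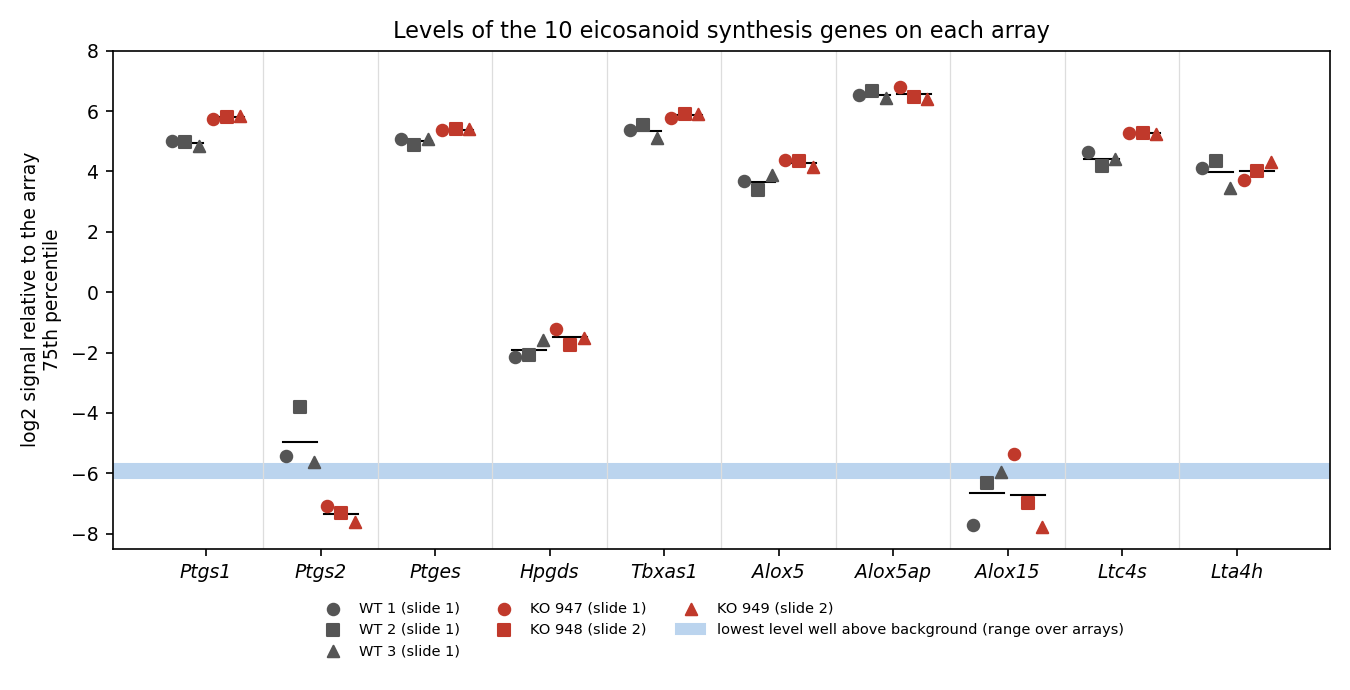
Log2 level of the 10 genes (x axis) on each of the 6 arrays (y axis: log2 signal minus the log2 75th percentile of that array), with WT arrays in grey, KO arrays in red and the mean of each genotype as a bar. The blue band spans the lowest level well above background on the arrays (-6.16 to -5.68); heights can be compared between arrays for 1 gene and not between genes, and the KO points lie wholly above the WT points for Ptgs1, Ptges, Tbxas1, Alox5 and Ltc4s.

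Ptgs1 encodes cyclooxygenase 1, which makes prostaglandin H2 without prior induction. Its level was 5.02, 4.97 and 4.83 on WT 1, 2 and 3 and 5.75, 5.80 and 5.85 on KO 947, 948 and 949. Every KO array lay above every WT array, with 0.72 between the highest WT and the lowest KO level. In processed signal units, its spot read 57812.9, 69018.8 and 71980 in WT and 116813, 126987.7 and 115091.1 in KO. The genotype means were 4.94 ± 0.10 in WT and 5.80 ± 0.05 in KO (SD, n = 3 each). The difference was 0.86 ± 0.14 (SE, 95% interval 0.53 to 1.18, limma adjusted p = 0.0294), with the smallest p of the members. KO 947 alone, on the slide it shared with WT, lay 0.80 above the WT mean, and KO 948 and 949 together lay 0.88 above it. With slide as a block, the difference was 0.80 and no longer passed (limma adjusted p = 0.118). The difference stayed between 0.80 and 0.90 when any 1 array was left out, but the limma adjusted p was 0.034 without KO 947, 0.0948, 0.0913 and 0.0802 without WT 1, 2 and 3, and 0.118 and 0.101 without KO 948 and 949.

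The 3 genes whose level followed that of Ptgs1 most closely over the 6 arrays were Arg1, which encodes arginase 1 (Pearson r = 0.9961), Cd300lf, an inhibitory receptor of myeloid cells (r = 0.9961), and Npas2, a transcription factor of the circadian clock (r = 0.9955). In all, 227 of the 15701 genes with a value on every array had an r above 0.95 with Ptgs1. These r values are a description over arrays of 2 genotypes that differ in Ptgs1, and no p is given.

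Ptgs2 encodes cyclooxygenase 2, the form that inflammatory stimuli induce. The array carries its probe in 10 spots, which gives a view of the measurement at the edge of detection. Of the 10 spots, 6, 10 and 4 were well above background on WT 1, 2 and 3, and 0, 0 and 1 on KO 947, 948 and 949. The 1 such spot on KO 949 had a signal of 77.4, was marked as an outlier and was left out. The median signal over the spots was 40.3, 159.7 and 49.4 on WT 1, 2 and 3 and 11.8, 15.1 and 10.4 on KO 947, 948 and 949. Every WT median lay above every KO median, and WT 2 stood apart from the other two WT arrays, where the spots ran from 31.8 to 56.8 (WT 1) and from 32.9 to 84.6 (WT 3) against 137.8 to 222.2 on WT 2.

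As log2 levels, Ptgs2 read -5.43, -3.81 and -5.62 in WT and -7.07, -7.33 and -7.63 in KO, which did not overlap. A probe spotted several times counted as well above background on an array where at least 50% of its spots were, and Ptgs2 met this on 2 WT arrays and 0 KO arrays, so it was not tested. The WT mean of -4.95 was 2.01-fold above -5.96, the mean over the KO arrays of the lowest level flagged well above background. This is not a strict bound, since a spot without that flag can lie above the lowest flagged level. On KO 947, 1 such spot lay at -5.58, against -5.68. The measured means were -4.95 and -7.34, a difference of -2.39 that rests on undetected levels in KO. Without WT 2 the value of 2.01-fold became 1.35-fold and the measured difference was -1.82. Under a looser rule chosen after seeing the data, in which any 1 spot sufficed, Ptgs2 entered the test through the WT arrays alone. Its pass there as lower in KO (limma adjusted p = 0.0494) is therefore partly set by the filter and adds no evidence. With no filter on dim probes it did not pass (limma adjusted p = 0.0806).

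**Figure D2:**
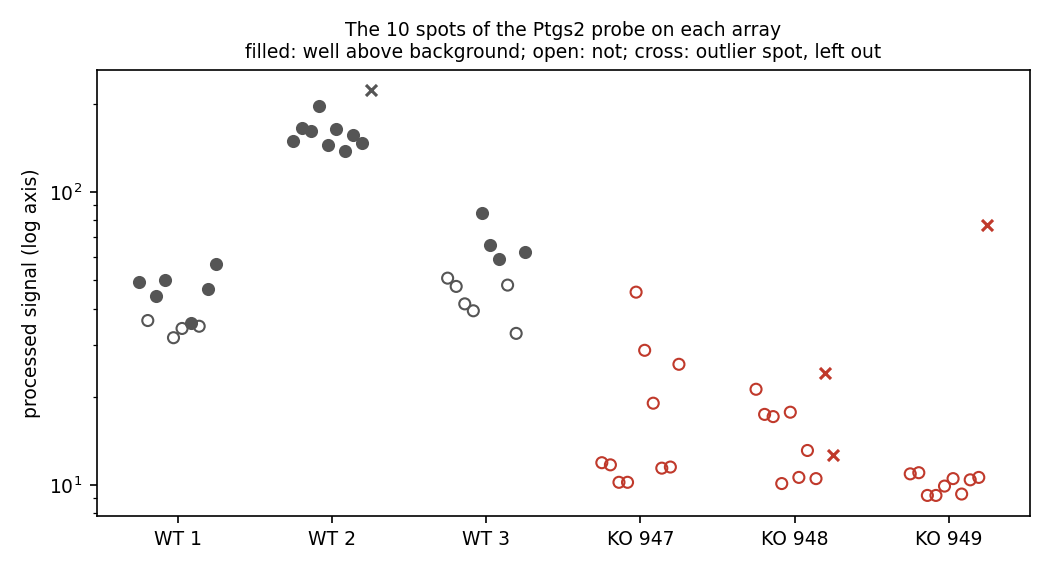
Processed signal (y axis, log scale) of each of the 10 Ptgs2 spots on the 6 arrays (x axis), with WT in grey and KO in red; filled points are well above background, open points are not, and crosses are outlier spots that were left out. Spots of WT 2 lie highest (137.8 to 222.2), and all but 2 of the spots on the KO arrays lie below every spot on the WT arrays.

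Ptges encodes the membrane-bound prostaglandin E synthase that acts after the cyclooxygenases. Its brighter probe read 5.06, 4.89 and 5.09 in WT and 5.36, 5.40 and 5.42 in KO. All KO levels lay above all WT levels, with 0.27 between the groups. The difference was 0.38 ± 0.14 (SE, 95% interval 0.05 to 0.70) and did not pass (limma adjusted p = 0.186). The dimmer probe of Ptges went the other way, at -1.78, -1.92 and -2.16 in WT and -2.32, -2.37 and -3.33 in KO. Here every KO level lay below every WT level, with a difference of -0.72 ± 0.30 (SE) that did not pass either (limma adjusted p = 0.246 with each probe tested on its own). The mean of both probes gave -0.17, so the direction for Ptges depends on the probe, and which transcripts each probe reads was not tested.

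Tbxas1 encodes thromboxane A synthase, which is abundant in platelets and also present in macrophages. It read 5.39, 5.53 and 5.12 in WT and 5.78, 5.90 and 5.92 in KO. The groups were 0.24 apart and did not overlap. The difference was 0.52 ± 0.16 (SE, 95% interval 0.13 to 0.90, 1.43-fold) and did not pass (limma adjusted p = 0.138). With slide as a block it was 0.43.

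Hpgds encodes the hematopoietic prostaglandin D synthase, known from mast cells and antigen-presenting cells. Its levels were -2.15, -2.07 and -1.57 in WT and -1.22, -1.74 and -1.53 in KO. The groups overlapped, since WT 3 lay above KO 948, and the highest level was that of KO 947. The difference was 0.43 ± 0.22 (SE, 95% interval -0.10 to 0.96) and did not pass (limma adjusted p = 0.33). Blocking on slide, which leaves KO 947 to stand for KO, gave 0.71 (limma adjusted p = 0.27), and without KO 947 it was 0.29.

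Alox5 encodes 5-lipoxygenase, the first enzyme of leukotriene synthesis. It read 3.68, 3.37 and 3.88 in WT and 4.38, 4.34 and 4.14 in KO. The KO levels lay wholly above the WT levels, by at least 0.26, with KO 949 and WT 3, the arrays labelled female, closest to each other. The difference was 0.65 ± 0.18 (SE, 95% interval 0.22 to 1.08, 1.57-fold) and did not pass (limma adjusted p = 0.113). It passed with arrays scaled to their median (limma adjusted p = 0.0467) and with a trended, robust variance (0.048).

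Alox5ap encodes the 5-lipoxygenase activating protein, which presents arachidonic acid to the enzyme. Its levels were 6.53, 6.66 and 6.43 in WT and 6.80, 6.48 and 6.39 in KO, so the groups overlapped and KO 947 was highest. The difference was 0.02 ± 0.17 (SE, limma adjusted p = 0.969), with a 95% interval from -0.38 to 0.41, and it turned to -0.10 without KO 947. Alox15 encodes the 12/15-lipoxygenase, known from eosinophils and resident peritoneal macrophages. It was not well above background on any WT array and was so on 1 KO array, KO 947, with processed signals of 8.5, 27.5 and 40.4 in WT and 52.8, 18.2 and 9.1 in KO. The groups overlapped, and no difference could be measured at this brightness.

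Ltc4s encodes leukotriene C4 synthase, the start of the cysteinyl leukotriene branch. It read 4.63, 4.17 and 4.42 in WT and 5.29, 5.27 and 5.25 in KO. The KO arrays lay close together and at least 0.62 above every WT array. The means were 4.41 ± 0.23 in WT and 5.27 ± 0.02 in KO (SD, n = 3 each), a difference of 0.86 ± 0.16 (SE, 95% interval 0.48 to 1.25, limma adjusted p = 0.0447). In processed signal units the spot read 44080.5, 39733.1 and 54153.1 in WT and 85443.2, 88113.6 and 76029 in KO. With slide as a block the difference was 0.89 and did not pass (limma adjusted p = 0.152). It lay between 0.75 and 0.98 with any 1 array left out, and no such fit passed, with a limma adjusted p from 0.0558 (without KO 947) to 0.15 (without KO 948).

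Lta4h encodes leukotriene A4 hydrolase, which makes leukotriene B4 from the same precursor. It read 4.10, 4.34 and 3.46 in WT and 3.72, 4.02 and 4.32 in KO. The groups overlapped fully, with WT 3 lowest and WT 2 highest. The difference was 0.05 ± 0.27 (SE, 95% interval -0.60 to 0.70, limma adjusted p = 0.936), and its sign depended on the scaling (0.00 after quantile normalization and -0.02 after normexp correction).

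**Figure D3:**
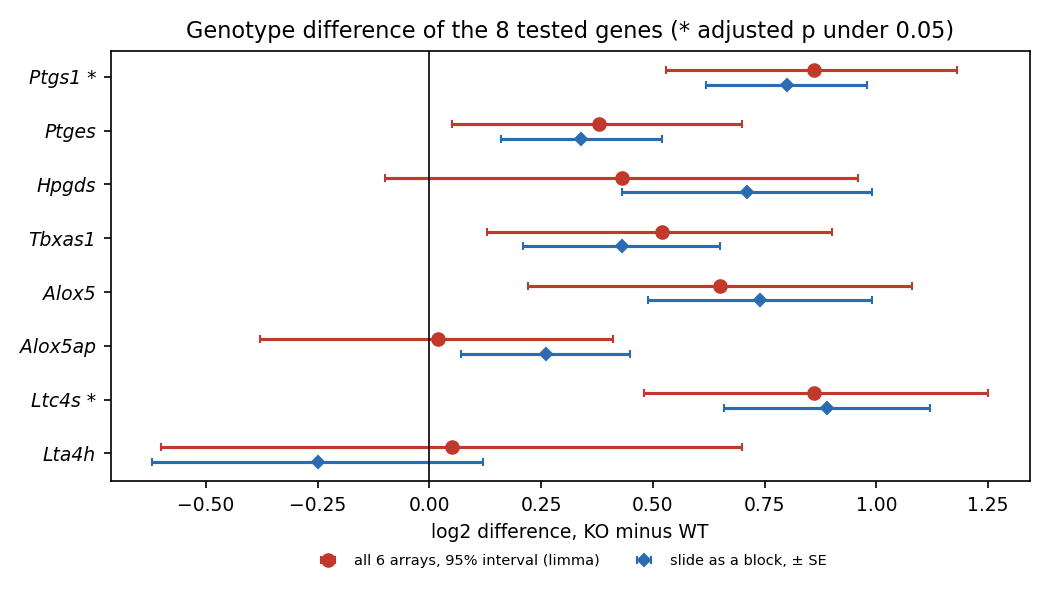
Difference in log2 level between KO and WT (x axis) for the 8 tested genes (y axis), in red from the fit to all 6 arrays with its 95% interval and in blue with the slide as a block with its SE. Ptgs1 and Ltc4s (starred, both 0.86) passed the adjusted threshold in the first fit, and no gene passed it with the slide as a block.

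At 4 branch points, the level of 1 enzyme was set against its partner on the same array, and the log2 ratio was compared between genotypes, with p adjusted over the 4 ratios. Only the difference between genotypes is read here, since probes differ in brightness for reasons other than abundance. The ratio of Ptgs2 to Ptgs1 was lower on every KO array (-12.82, -13.13 and -13.48) than on every WT array (-10.45, -8.77 and -10.45). The difference was -3.25, or -1.86 with Ptgs2 held at no less than the lowest level well above background on each array. On the measured ratios the exact permutation test gave p = 0.1, the smallest that 3 against 3 arrays allow (adjusted 0.4). Ptgs2 was well above background on 2 of 3 WT and 0 of 3 KO arrays, so the KO ratios rest on undetected levels. The difference also holds the 0.86 by which Ptgs1 rose, and this p adds no evidence. The ratio of Ltc4s to Lta4h was 0.53, -0.17 and 0.97 in WT and 1.58, 1.25 and 0.94 in KO. These groups overlapped by WT 3 and KO 949, and the difference of 0.81 had an exact permutation p = 0.2 (adjusted 0.4). The ratio of Hpgds to Tbxas1 differed by -0.09 (exact permutation p = 0.8), with overlapping groups. The ratio of Alox15 to Alox5 is not read, since Alox15 was well above background on 1 array. On the slide that holds both genotypes the other differences were -2.93, 1.13 and 0.28 in the order given.

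Other genes of the pathway were taken from a list of 66 genes in 9 roles, also chosen with earlier results of these data known. Of the 58 that were bright enough to test, 1 rose (Cbr2), 2 fell (Ptgis and Ptger3) and 55 did not pass, against 3.41% of all genes passing in either direction. The split depended on the scaling: with arrays scaled to their median, 3 were called higher (Cbr2, Mgst2 and Pla2g15) and 0 lower, with Ptgis at a limma adjusted p of 0.0522 and Ptger3 at 0.0646. After quantile normalization Cbr2 (limma adjusted p = 0.0653) and Ptger3 (0.055) did not pass, and Ptgis and Cyp4f18 did. Mgst2 and Pla2g15 are named here after their values were seen. At an unadjusted limma p under 0.05, 6 were higher and 9 lower, against 20.4% of all genes in either direction. The median difference of the 58 was 0.02. KO and WT did not overlap in 10 genes that were higher and 9 that were lower, against 13.4% and 13.5% of all genes.

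Among the other prostanoid synthases, Ptgis, the prostacyclin synthase, read -0.25, -0.24 and -0.94 in WT and -1.70, -1.84 and -1.69 in KO. The highest KO level lay below the lowest WT level, with a difference of -1.26 ± 0.22 (SE, limma adjusted p = 0.0383). Cbr2, a carbonyl reductase, read 1.06, -0.10 and 0.62 in WT and 2.10, 2.15 and 2.12 in KO, a difference of 1.60 ± 0.29 (SE, 3.03-fold, limma adjusted p = 0.0417). The KO levels of Cbr2 again lay close together while the WT levels were spread. Its second probe was also higher in KO, by 1.24. With slide as a block the difference of Ptgis was -1.22 (limma adjusted p = 0.157) and that of Cbr2 was 1.58 (limma adjusted p = 0.169). Ptgis did not pass without WT 1 (limma adjusted p = 0.128), WT 2 (0.11), KO 948 (0.128) or KO 949 (0.0991). Cbr2 did not pass with any 1 of the 6 arrays left out (limma adjusted p from 0.0529 without WT 1 to 0.129 without KO 948).

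Ptger3, the EP3 receptor for prostaglandin E2, fell. It read 0.44, 0.77 and 1.22 in WT and -0.27, -0.83 and -0.44 in KO, with no overlap. The difference was -1.32 ± 0.25 (SE, limma adjusted p = 0.0442), and its second probe was also lower, at -1.15. With slide as a block it was -1.08 (limma adjusted p = 0.201). Of the arrays left out in turn, only the fit without KO 947 passed (limma adjusted p = 0.0434), and the others ran from 0.0824 without WT 1 to 0.137 without KO 948. Of the 6 prostanoid receptors tested, 1 had a positive difference and 5 a negative one. Ptger1, Ptgdr and Ptgfr were too dim to test.

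Upstream of the enzymes described here, 12 genes of arachidonate release were tested and 0 passed, with 2 higher and 2 lower at an unadjusted limma p under 0.05. Of all 15736 genes, 1395 were higher and 1819 lower at that unadjusted threshold (20.4% in either direction), which the counts by role are to be read against. Pla2g4a, the cytosolic phospholipase A2 that frees arachidonic acid, had non-overlapping levels of 2.64, 3.28 and 2.58 in WT and 3.60, 3.82 and 3.92 in KO (difference 0.95 ± 0.22 SE, limma adjusted p = 0.0756; it was chosen for mention after its values were seen). The secreted phospholipases Pla2g5 and Pla2g2d differed by -1.26 (limma adjusted p = 0.407) and -1.06 (0.093). In re-esterification, where 0 of 5 passed with or without adjustment, Acsl4 and Mboat7 differed by 0.15 and -0.10. The role with transport and breakdown of prostaglandins also had 0 of 5 (1 higher without adjustment), led by the prostaglandin transporter gene Slco2a1 (-1.27, limma adjusted p = 0.281) and the reductase gene Ptgr1 (0.55, 0.188).

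Downstream in the leukotriene branch, 0 of 11 genes of conjugation, export and breakdown passed, with 1 higher and 1 lower at an unadjusted limma p under 0.05. Counts without adjustment in this paragraph stand against 20.4% of all genes in either direction. Cyp4f18, which encodes a leukotriene B4 hydroxylase, fell just short of the threshold, at 4.12, 3.82 and 4.05 in WT and 3.29, 3.26 and 3.27 in KO. Its groups did not overlap and differed by -0.72 ± 0.14 (SE, limma adjusted p = 0.050005). Ggt1, the gamma-glutamyl transferase gene, was well above background on 1 WT and 2 KO arrays and differed by 0.91 (limma adjusted p = 0.284). Of the leukotriene and lipoxin receptors, 0 of 5 passed (1 higher without adjustment), and the cysteinyl leukotriene receptor genes Cysltr1 and Cysltr2 were higher by 0.73 (limma adjusted p = 0.121) and 0.66 (0.273) without overlap. The other lipoxygenases, 0 of 3 (2 lower without adjustment), had differences of -0.99 (Alox12e) and -0.59 (Alox12b), and in the epoxide branch, 0 of 4 (1 lower without adjustment), that of Ephx2 was -1.34 (limma adjusted p = 0.131). Cyp2j9, well above background on 1 WT and 2 KO arrays, differed by 0.87 (limma adjusted p = 0.567).

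**Figure D4:**
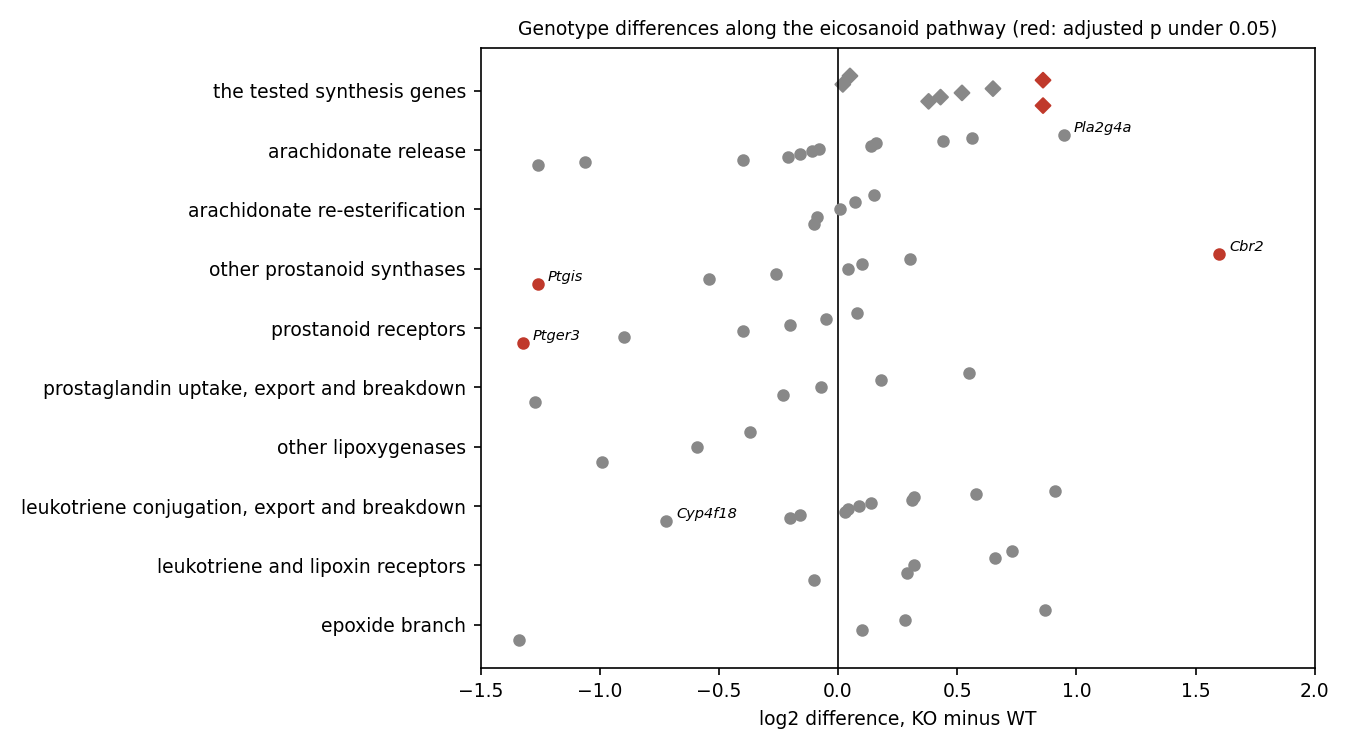
Difference in log2 level between KO and WT (x axis) of the 8 tested synthesis genes (diamonds) and of 58 other genes of the pathway (circles) by role (y axis), with red marking an adjusted p under 0.05. The synthesis genes lie between 0.02 and 0.86, and the other genes lie on both sides of 0, from -1.34 to 1.60.

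Several of these enzymes are known from other cells that such a culture can hold, so marker lists were read on the same arrays. Sums here and in the next paragraph are of the linear signal divided by the array's 75th percentile. They run over the tested genes of a list only, so genes too dim to test are left out and the brightest weigh most. Of all 15736 genes tested, 1.14% were called higher and 2.27% lower, and 7994 had a negative difference. The macrophage markers Adgre1 and Csf1r differed by 0.21 (limma adjusted p = 0.432) and -0.20 (0.478) in log2 level. The sum of the list ran from 336 to 378 in WT and from 369 to 405 in KO. Of its 8 tested genes, 5 had a positive difference and 3 a negative one, with only Mrc1 called higher. The 11 tested of 13 markers of mast cells, basophils and eosinophils, which carry Hpgds, Alox5 and Ltc4s, summed to 26.0 to 55.6 in WT and 7.24 to 23.2 in KO. Most of that sum on the WT arrays was the eosinophil gene Prg2, at a log2 level of 4.22, 5.60 and 5.25 in WT and 3.51, 4.09 and -0.58 in KO (limma adjusted p = 0.262). The eosinophil marker Epx differed by -3.06, with overlap (limma adjusted p = 0.361). Of 11 tested, 10 had a negative difference and 3 were called lower (Kit, Mcpt8 and Prss34), against 2.27% of all genes called lower. Siglecf was the 1 with a positive difference (0.47, limma adjusted p = 0.29), with overlap. Mcpt8 was well above background on 3 WT and 0 KO arrays, so it entered the test through WT alone and its call is partly set by the filter. On KO 947, where Hpgds and Alox15 were highest, the list did not move as one: Cpa3 read 1.13, within the WT range of -0.66 to 1.17, while Kit read -5.66, below its WT range of -2.40 to -0.66, and Mcpt8 (-7.43) and Prss34 (-3.87) were also below WT. The part of these cells in the levels of Hpgds, Alox5, Alox15 and Ltc4s was not tested.

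The list of megakaryocyte and platelet genes, cells rich in Ptgs1 and Tbxas1, summed to 144 to 212 in WT and 173 to 209 in KO. These ranges overlapped and 0 of 5 tested passed. Most of that sum was Pf4, at a mean log2 level of 7.18 in WT and 7.32 in KO (difference 0.14, limma adjusted p = 0.71). The defining marker Itga2b was well above background on 1 WT and 0 KO arrays and was not tested. It read -5.81, -5.79 and -4.72 in WT and lower in KO, at -6.67, -7.40 and -6.83, without overlap. Gp1ba was not well above background on any array. Stromal markers, from cells that can carry Ptgis, summed to 10.9 to 40.9 in WT and 4.10 to 5.82 in KO. All 8 tested were lower and 3 were called (Col1a1, Col1a2 and Sparc), against 2.27% of all genes called lower. Ptgis was lower on the same arrays, and the part of stromal cells in it was not tested. The dendritic cell list summed to 277 to 309 in WT and 188 to 196 in KO. All 9 tested were lower, and 3 were called (Ccr7, Cd83 and H2-Aa). The granulocyte list summed to 216 to 236 in WT and 155 to 172 in KO. Of 10 tested, 8 were lower, with S100a9 called, and 2 were higher, Mmp8 (0.47) and Elane (0.20). The part of dendritic cells and neutrophils in the levels of Ptgs2, Alox5 and Cyp4f18, which these cells also express, was not tested. The defining markers Flt3 (-0.72, limma adjusted p = 0.291), S100a8 (-0.63, 0.122) and Ltf (-1.31, 0.0964) did not pass. The lists of lymphoid and erythroid genes summed to at most 1.80 and 0.433 on any array. With slide as a block, Sparc passed (limma adjusted p = 0.0486) and the other 10 called markers did not, with a limma adjusted p from 0.0528 (Ccr7) to 0.177 (Prss34). Markers named here that are not defining ones were named after their values were seen.

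The authors' deposited table holds 3215 probes, and in every one the genotypes do not overlap, so a gene's presence there adds no evidence that it differed. It lists 5 of the 10 members, each higher in KO. The authors' deposited table gives mean differences of 0.87 for Ptgs1, 0.88 for Ltc4s, 0.66 for Alox5, 0.53 for Tbxas1 and 0.39 for Ptges. The Ptges value is that of the brighter probe. Among the other genes of the pathway, the authors' deposited table gives -1.25 for Ptgis, 1.61 and 1.25 for the probes of Cbr2, 0.96 for Pla2g4a, -1.05 for Pla2g2d, -0.71 for Cyp4f18, 0.74 and 0.87 for the probes of Cysltr1, 0.57 for Ptgr1 and -0.63 for Alox12b. Ptger3 was not among the rows of the authors' deposited table used here.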

How the data were processed

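Total RNA was amplified, labelled with 1 dye and hybridised to 6 Agilent mouse arrays, per the labels' protocols. The deposited scanner files give each spot's intensity as a background-subtracted, spatially detrended processed signal with no scaling between arrays, per the file headers (Agilent Feature Extraction 10.7.3.1, and 9.1 per the submitters' processing notes). The deposited table of the whole series holds log2 values that the authors centred on each probe's median, and the sources used here do not say how arrays were scaled first. Each of its columns correlated at 0.999 or above with the levels of its array as scaled here, centred on each probe's median. Its column medians were 0.14, 0.11 and 0.11 (WT 1, 2, 3) and -0.10, -0.13 and -0.13 (KO 947, 948, 949).

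Of 55681 probes, 26413 were named through transcript accessions and a RefSeq table (20018 symbols), and 29268 had no name here. Control and outlier spots (0.2% to 0.39%) were left out and spots of a probe averaged. A probe was kept if 3 or more of the 6 arrays had it well above background, and the probe with the highest mean stood for a gene. KO and WT were compared with limma 3.58.1 in R 4.3.3 (lmFit and eBayes, a two-sided test), adjusted by Benjamini-Hochberg over the 15736 genes, at a threshold of 0.05. The scripts were tested on simulated data. Slide was no covariate, because KO 947 would then be the sole KO array in the contrast, and the blocked difference equals that within its slide. Members and lists were chosen with earlier results of these data known. Genes named were the members, called list genes or else up to 2 per role with the largest difference, Hmox1, Bach1, defining markers and the 3 genes closest to Ptgs1. Alternatives covered scaling, background correction (normexp, planned on mean spot signals, was run on median spot signals), filter, slide, sex, probe choice, variance model and each array left out.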

Additional observations from a re-analysis of the deposited data

How the results depend on the processing

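Called members numbered 2 in the reported fit, 1 after quantile normalization, with no filter on dim probes and with every probe tested on its own, and 0 with the slide as a fixed block, as a random block or with its shared arrays only, with sex as a covariate and with male arrays only. The authors' deposited table, whose probes separate the genotypes, gave 5. With 1 array left out, 0 to 1 members passed (1 without KO 947). Called genes in all numbered 537, and 343 (quantile), 275 (no filter), 84 (slide fixed), 255 (slide random), 24 (shared slide), 305 (sex), 182 (male), 810 (trended, robust variance), 1740 of 1844 (the authors' deposited table) and 77 (without WT 1) to 900 (without KO 947). The pathway list had 3 calls, and 0 with no filter, each slide setting or sex, 1 with male arrays, 6 with the trended variance, 11 in the authors' deposited table and 0 to 3 with 1 array left out.

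Signs turned for genes near 0. Lta4h was 0.00 (quantile), -0.02 (normexp), -0.25 (slide fixed and shared slide), -0.05 (slide random), -0.35 (male), -0.20 (without WT 3) and -0.10 (without KO 949). With 1 array left out, Lta4h ran from -0.20 to 0.24 and Alox5ap from -0.10 (without KO 947) to 0.10, with -0.04 without WT 3, and Ptges was -0.17 as the mean of its probes. The ratio of Alox15 to Alox5, which rests on Alox15 levels mostly below background, was 0.56 on the shared slide and 0.01 in males, and ran from -1.31 to -0.22 with 1 array left out. That of Hpgds to Tbxas1 was 0.00 (quantile), 0.28 (shared slide) and 0.26 (male), and ran from -0.27 to 0.21. The causes were not tested, beyond the fewer arrays of some settings. Ptgs1 stayed between 0.75 and 1.07 and Ltc4s between 0.75 and 1.08 under every alternative, each always higher in KO. No paired analysis was possible because the labels give WT and KO mice no shared replicate numbers. Ptgs2 in KO and Alox15 in both genotypes lay near or below background, which limits both genes to levels. Ptgs2 was also near that edge on WT 1 and WT 3 (-5.43 and -5.62), where the lowest levels well above background were -5.74 and -5.76.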
